A study of Mus musculus with 8 samples.

Results

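The genes described here are 10 genes of sphingosine-1-phosphate (S1P) signalling and turnover: the 5 S1P receptors S1pr1 to S1pr5, the sphingosine kinases Sphk1 and Sphk2, the transporter Spns2, the lyase Sgpl1 and the phosphatase Sgpp1. They were chosen by symbol, and all 10 have a row among the 38918 genes of the deposited table. Poly(A) RNA came from the mouse cell line BMiFLT3 (15-3), pro-B cells of a B-cell precursor leukaemia. The cells had been infected with a retrovirus for Klf2, a zinc-finger transcription factor, or, as the control, with one for BFP, a blue fluorescent protein. Both groups share the parental line and a retroviral infection, and the sample descriptions of both carry the word BFP. The file headers give the groups different identifiers, whose meaning is not stated there. Which library kit each library used is not given. A difference of kit or preparation between the groups could not be told apart from Klf2. The design asks which genes are regulated by Klf2 when it is overexpressed. Each group is 4 sequencing lanes of 1 library, so n = 1 per group: the comparisons carry no p-value and were not checked against replicates.

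S1P is a lipid messenger that is made inside cells by phosphorylation of sphingosine and that signals outside them through G-protein-coupled receptors. Blood and lymph hold much of it and tissues little, and lymphocytes read this gradient through S1pr1 when they leave lymphoid organs. The kinases make S1P, Spns2 exports it, Sgpp1 returns it to sphingosine and Sgpl1 cleaves it irreversibly. In mouse T cells, Klf2 is known as an activator of S1pr1.

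The Klf2 library held 30835450 exon reads and the BFP library 30133978. Klf2 itself was at 113 CPM (counts per 1000000 reads, scaled between the libraries with TMM) from 3364 reads in the Klf2 library, against 10.1 CPM from 314 reads in the BFP library. Of 10 B-progenitor markers, 8 were measured, and the list summed to 3701 CPM in the Klf2 library and 3295 CPM in the BFP library: Cd79a, Vpreb1, Igll1 and Pax5 each had at least 4818 reads in both libraries, while Rag1 had 1 read in each. Of 7 endothelial markers, Pecam1 had 1746 and 1403 reads in the Klf2 and BFP libraries, Cdh5 had 13 and 24, and Kdr and Tie1 had none. Summed T-cell markers reached 0.870 CPM in the Klf2 library and 0.579 CPM in the BFP library, with Cd3e, Cd4 and Cd8a at 0 reads in both. Summed myeloid markers reached 5.52 CPM in the Klf2 library and 8.46 CPM in the BFP library. In bulk RNA, fewer cells that carry a transcript and less of it per cell cannot be told apart.

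S1pr1 was nearly absent from the Klf2 library, and Sgpl1 was at about the 2-fold limit below the BFP library. The other measured genes of the set did not reach a 2-fold difference. A gene counted as measured with at least 1 CPM in either library, and was called when its CPM ratio (Klf2 over BFP) was at least 2-fold and the exact 95% interval of the ratio excluded 1. These intervals, like every interval below, cover counting error only. Of the 10 genes, 7 were measured, 1 was called lower (S1pr1) and none was called higher. Over all 10850 measured genes, 615 were called lower (5.67%) and 266 higher (2.45%). The deposited RPKM (exon reads corrected for gene length and lane depth) was judged by the 2-fold limit alone, without an interval. Of 9876 genes with a mean of at least 1 RPKM in either library, 559 were lower and 128 higher by it. The median difference in log2(CPM + 1) was -0.28 over the 7 measured genes and -0.01 over all measured genes. Without a fold limit, 3 of the 7 had an interval below 1 (S1pr1, Sphk2 and Sgpl1) and 1 an interval above 1 (Sgpp1), beside 37.3% below and 37.1% above over all measured genes.

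**Figure D1:**
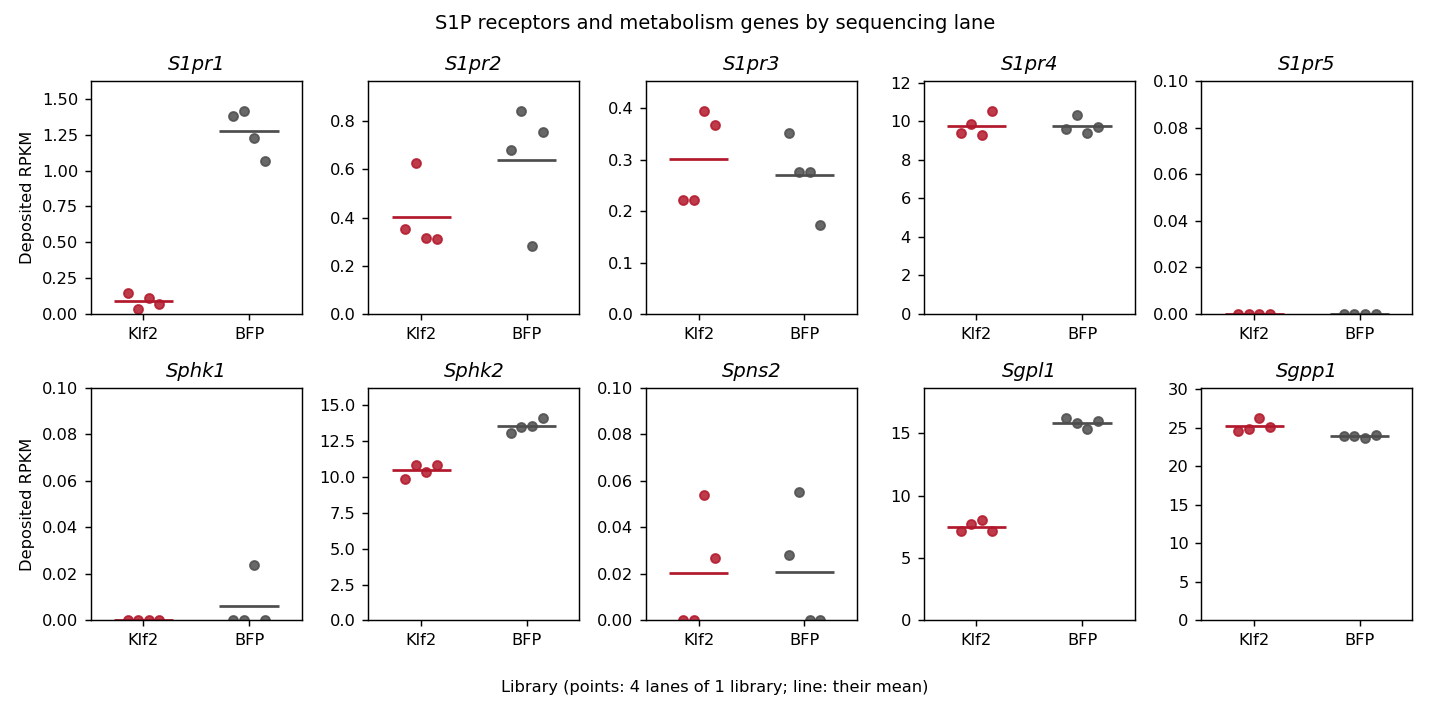
Deposited RPKM of each gene (y axis, from 0, its own scale in each panel) in the 4 lanes of the Klf2 library (red, left) and the 4 lanes of the BFP library (grey, right), with the mean of the lanes as a line. The lanes of S1pr1, Sphk2, Sgpl1 and, by a small margin, Sgpp1 do not overlap between the libraries: S1pr1 lies between 0.036 and 0.145 in Klf2 lanes and between 1.07 and 1.41 in BFP lanes.

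Among the receptors, S1pr1 showed the widest separation. This receptor couples to inhibitory G proteins and guides lymphocyte egress. It lies on chromosome 3, 115710433 to 115715055 (mm10), with 2 exons. Lanes 1 to 4 of the Klf2 library held 4, 1, 3 and 2 exon reads of S1pr1, and lanes 1 to 4 of the BFP library held 37, 38, 33 and 29. Every Klf2 lane was thus far below every BFP lane, although lanes of 1 library show technical spread alone. In CPM, S1pr1 was at 0.335 in the Klf2 library and 4.41 in the BFP library, a ratio of 0.0760 (0.0356 to 0.144). Only 6 of the 10850 measured genes had a lower ratio. All exon reads of S1pr1 were uniquely placed, none crossed its exon junction in either library, and no other GENCODE gene overlaps it. Counted over the whole gene, introns included, S1pr1 had 10 reads in the Klf2 library and 139 in the BFP library. The gene belongs to the lowest of 5 equal groups of measured genes by mean CPM, a group in which 16.1% of genes were called lower and the median log2 ratio was -0.20.

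S1pr4, a receptor found mainly on blood cells, was the most abundant receptor per length in both libraries and was at a similar level in them. The gene has a single exon on chromosome 10 (81497745 to 81500132). Its deposited RPKM was 9.40, 9.88, 9.30 and 10.5 in lanes 1 to 4 of the Klf2 library, and 9.60, 10.3, 9.41 and 9.73 in lanes 1 to 4 of the BFP library. These lanes overlapped. In scaled CPM, S1pr4 stood at 28.4 in the Klf2 library and 26.7 in the BFP library, a ratio of 1.06 (0.966 to 1.17). An interval that holds 1 does not show equal levels.

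S1pr2 and S1pr3 were close to the detection floor. S1pr2 couples to G12 and G13 proteins and holds germinal centre B cells in place, and S1pr3 is known in mice from marginal zone B cells. S1pr2 (chromosome 9, 20965952 to 20976793) had 9, 16, 8 and 8 exon reads in lanes 1 to 4 of the Klf2 library, and 17, 21, 7 and 19 in lanes 1 to 4 of the BFP library. The lanes overlapped, and the ratio of 0.667 had an interval of 0.439 to 1.002. S1pr3 (chromosome 13, 51408618 to 51422797) had 9, 9, 16 and 15 reads in Klf2 lanes and 14, 11, 11 and 7 in BFP lanes, again with overlap. Its ratio was 1.19 (0.771 to 1.83). Exons of S1pr3 share 45 bases with the non-coding gene Gm32834 on the other strand. S1pr5, the receptor of natural killer cell egress (chromosome 9, 21242912 to 21248443), had no exon read in either library. At these depths 0 reads leave room for a level of up to 0.0973 CPM in the Klf2 library and 0.0996 CPM in the BFP library, before TMM scaling. Outside its exons S1pr5 had 0 reads in the Klf2 library and 4 in the BFP library.

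The make-up of receptor reads differed between the libraries, in a comparison within each library that needs no scaling. S1pr1 took 1.05% of the 948 receptor exon reads in the Klf2 library (0.507 to 1.93%), against 12.8% of the 1073 in the BFP library (10.8 to 14.9%, exact intervals). S1pr4 took 89.5% (87.3 to 91.3%) in the Klf2 library and 77.3% (74.6 to 79.7%) in the BFP library. Shares of the same total depend on each other, so a lower share of S1pr1 by itself raises that of S1pr4. The scaled CPM ratio of S1pr4 was 1.06 (0.966 to 1.17). Per length, S1pr4 made up 92.5% of receptor reads in the Klf2 library and 81.7% in the BFP library, and S1pr1 0.860% and 10.6%. The reads of S1pr1 per read of S1pr4 were 0.0118 in the Klf2 library and 0.165 in the BFP library.

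**Figure D2:**
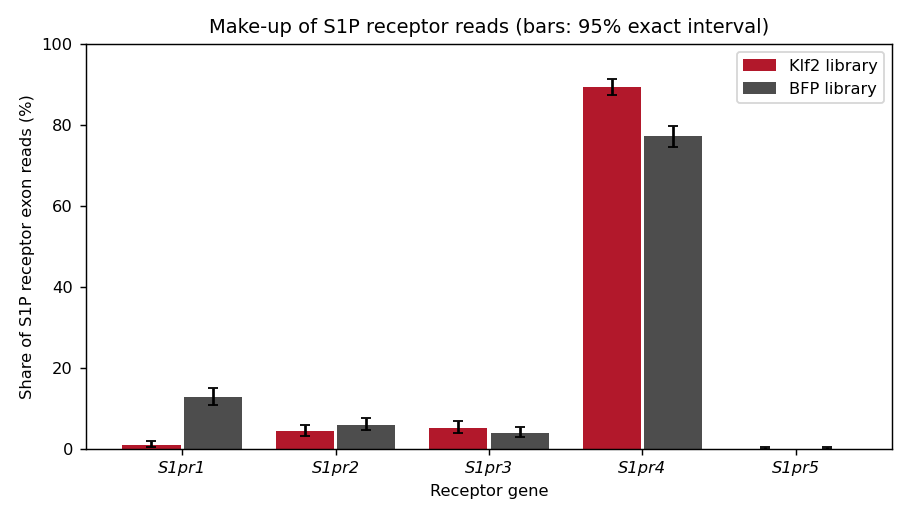
Share of all S1P receptor exon reads (y axis, percent) taken by each receptor gene in the Klf2 library (red) and the BFP library (grey), with 95% exact intervals. S1pr4 takes most reads in both libraries, and S1pr1 takes 1.05% in the Klf2 library against 12.8% in the BFP library.

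Of the sphingosine kinases, Sphk2 was the one detected. Sphk2, the mainly nuclear and mitochondrial isoform (chromosome 7, 45709467 to 45718002), had 374, 408, 389 and 412 exon reads in lanes 1 to 4 of the Klf2 library, and 482, 499, 501 and 526 in lanes 1 to 4 of the BFP library. The lanes did not overlap. Its level was 53.0 CPM in the Klf2 library and 64.6 CPM in the BFP library, a ratio of 0.820 (0.768 to 0.877), short of the 2-fold limit. Exons of Sphk2 share 373 bases with exons of the ribosomal protein gene Rpl18 and 539 bases with those of Dbp, both on the other strand. Rpl18 had 21511 reads in the Klf2 library and 32226 in the BFP library, and Dbp had 357 and 445. Whether strand was used in counting is not given in the sources used here, and the part of these genes in the Sphk2 reads was not tested. Reads across exon junctions of Sphk2 numbered 98 in the Klf2 library and 134 in the BFP library. Sphk1, the cytosolic isoform (chromosome 11, 116530925 to 116536674), had 0 exon reads in the Klf2 library and 1 in the BFP library, so no ratio is given.

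The exporter gene Spns2 was also at the floor. Spns2, best known from endothelial cells (chromosome 11, 72451638 to 72489904), had 3 exon reads in each library. Its exons share 131 bases with Mybbp1a on the other strand, which had 25542 reads in the Klf2 library and 17523 in the BFP library.

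Sgpl1, the endoplasmic reticulum enzyme that ends S1P by cleaving it, was lower in every lane of the Klf2 library. It lies on chromosome 10, 61098642 to 61147703. Lanes 1 to 4 held 399, 429, 447 and 403 exon reads in the Klf2 library, and 883, 863, 834 and 878 in the BFP library. The highest Klf2 lane was far under the lowest BFP lane. In CPM, Sgpl1 was at 56.2 in the Klf2 library and 111 in the BFP library, a ratio of 0.505 (0.476 to 0.535). This value sits at the 2-fold limit. With total-count scaling the ratio was 0.474, called lower, as were 6.97% of all measured genes under that scaling. With deposited RPKM it was 0.475, lower by the 2-fold limit alone, as were 559 of 9876 genes. Without lane 2 or lane 3 the ratio was 0.499 and 0.488, and without lane 1 or lane 4 it was 0.518 and 0.514. It was 0.502 with DESeq2 size factors, 0.506 on uniquely placed exon reads and 0.512 on gene reads. Of these 9 alternatives, 4 put the ratio at or under 0.5. The authors' deposited table gives Sgpl1 a signed fold of -2.11, negative for a lower Klf2 mean. This is the fold of the same mean RPKM and not a separate measure. RPKM and total-count scaling both divide by total reads. Reads outside exons, which include unspliced RNA, gave a similar ratio of 0.486 (0.399 to 0.591) from 152 reads in the Klf2 library and 331 in the BFP library. Sgpl1 lies in group 4 of the same 5 groups by mean CPM, where 1.94% of genes were called lower.

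Sgpp1, the phosphatase that turns S1P back to sphingosine, was the most abundant of the 10 genes per length in both libraries. It lies on chromosome 12, 75714248 to 75735729. Deposited RPKM of Sgpp1 was 24.6, 24.9, 26.3 and 25.1 in lanes 1 to 4 of the Klf2 library, and 23.9, 24.0, 23.7 and 24.0 in lanes 1 to 4 of the BFP library. All Klf2 lanes lay above all BFP lanes, by a small margin. The ratio of scaled CPM was 1.12 (1.07 to 1.18), from 3046 reads in the Klf2 library and 2825 in the BFP library. Reads outside exons of Sgpp1 numbered 542 in the Klf2 library and 456 in the BFP library, with a ratio of 1.26 (1.11 to 1.43).

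**Figure D3:**
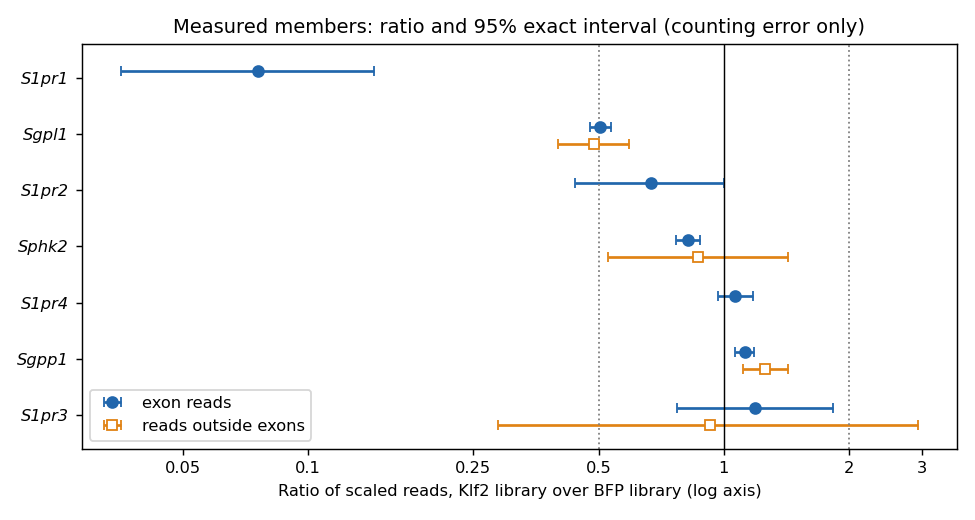
Ratio of scaled reads, Klf2 library over BFP library (x axis, log scale), for the 7 measured genes, with 95% exact intervals. Filled circles are exon reads and open squares are reads outside exons where both libraries had more than 3; dotted lines mark 2-fold. S1pr1 lies at 0.0760, Sgpl1 at 0.505 beside the dotted line, and the other 5 genes between 0.667 and 1.19.

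Reads of the enzyme genes can be compared with each other within each library, where scaling cancels. Such ratios describe RNA only and do not measure a balance of enzymes. The part of overlapping genes in the Sphk2 reads was not tested. There were 0.551 reads of Sgpl1 per read of Sgpp1 in the Klf2 library and 1.22 in the BFP library. The Klf2 value over the BFP value was 0.450 (0.416 to 0.487). Sgpl1 reads per Sphk2 read were 1.06 in the Klf2 library and 1.72 in the BFP library. Sphk2 reads per Sgpp1 read were 0.520 and 0.711 in the Klf2 and BFP libraries. Here the Klf2 value over the BFP value was 0.731 (0.672 to 0.795). The order of deposited RPKM differed accordingly: in Klf2 lanes it ran Sgpp1, Sphk2, S1pr4, Sgpl1, with overlapping lanes of Sphk2 and S1pr4, and in BFP lanes it ran Sgpp1, Sgpl1, Sphk2, S1pr4, with no overlap. Below these, the Klf2 order was S1pr2, S1pr3, S1pr1 and the BFP order S1pr1, S1pr2, S1pr3. S1pr2 and S1pr3 overlapped in both.

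**Figure D4:**
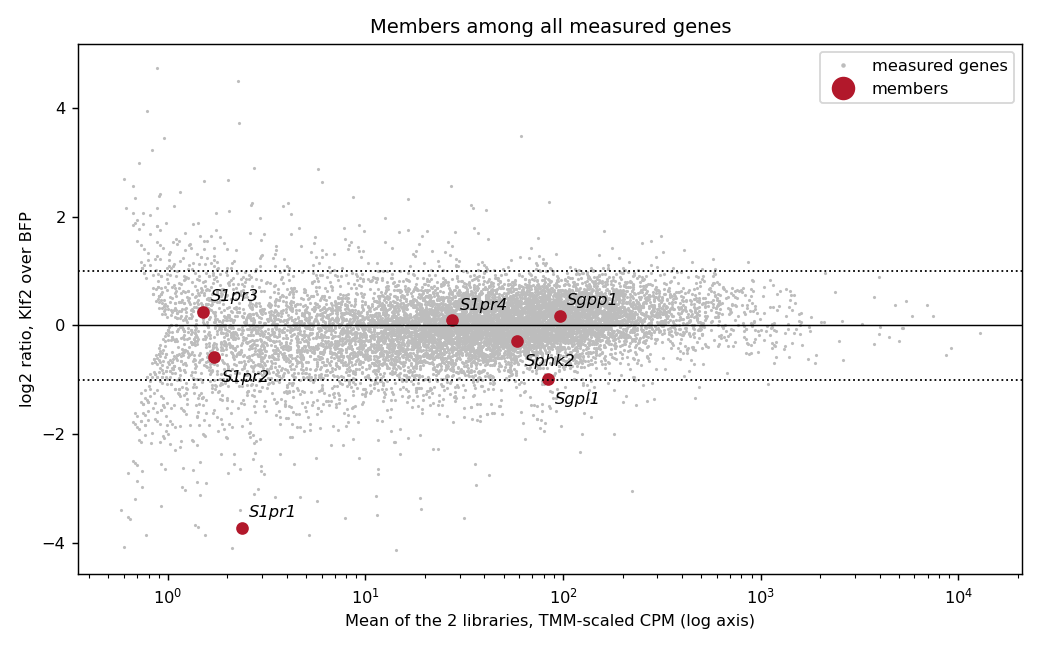
log2 ratio of the Klf2 over the BFP library (y axis) against mean TMM-scaled CPM (x axis, log scale) for measured genes with reads in both libraries (grey), with the 7 measured S1P genes in red. Dotted lines mark 2-fold. S1pr1 lies far below the lower dotted line among genes of low CPM, and Sgpl1 lies on it.

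Promoter sequence is shown for the measured receptors and for Sgpl1, since Klf2 is a DNA-binding factor of the family that recognises GC-rich and CACCC-type elements. The plan named receptors only, and Sgpl1 was added to it. RefSeq promoter entries (GRCm38.p6) matched 9 of the 10 genes, all but S1pr1. The 250 bases before the RefSeq start are printed 5′ to 3′ on the strand of the gene. Capitals mark matches, on either strand and with overlaps merged, to CCNCNCCC, a general form of the KLF and SP site. GTAAACA, a FOXO-type motif, was searched as well and had no match in any of the entries of the 9 genes. The regions are chr9:20976794-20977043 (minus strand) for S1pr2, chr13:51408368-51408617 (plus) for S1pr3, chr10:81500138-81500387 (minus) for S1pr4 and chr10:61147685-61147934 (minus) for Sgpl1.
S1pr2: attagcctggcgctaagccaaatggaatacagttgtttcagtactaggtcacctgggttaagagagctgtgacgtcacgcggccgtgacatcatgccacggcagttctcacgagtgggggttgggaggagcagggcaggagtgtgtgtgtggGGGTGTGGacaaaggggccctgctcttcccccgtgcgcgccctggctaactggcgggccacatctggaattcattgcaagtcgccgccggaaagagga
S1pr3: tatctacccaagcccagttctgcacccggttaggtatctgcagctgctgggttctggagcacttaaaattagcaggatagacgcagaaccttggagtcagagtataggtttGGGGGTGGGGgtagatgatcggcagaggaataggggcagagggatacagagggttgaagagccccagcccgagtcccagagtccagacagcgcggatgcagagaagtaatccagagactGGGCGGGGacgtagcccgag
S1pr4: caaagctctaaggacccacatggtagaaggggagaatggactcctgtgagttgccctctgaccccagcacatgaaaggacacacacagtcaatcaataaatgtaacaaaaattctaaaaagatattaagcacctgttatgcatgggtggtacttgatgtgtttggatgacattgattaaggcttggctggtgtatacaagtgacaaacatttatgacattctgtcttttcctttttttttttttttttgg
Sgpl1: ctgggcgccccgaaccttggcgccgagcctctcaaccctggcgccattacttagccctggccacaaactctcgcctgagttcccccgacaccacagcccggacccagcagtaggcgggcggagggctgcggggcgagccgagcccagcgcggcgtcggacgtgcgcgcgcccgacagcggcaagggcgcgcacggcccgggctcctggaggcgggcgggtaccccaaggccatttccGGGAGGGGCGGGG
The S1pr2 region held 1 match, S1pr3 3, S1pr4 0 and Sgpl1 2, with overlapping matches counted apart. Among entries not printed, those of Sphk2 held 3 and 1, those of Sphk1 1 to 2 each, S1pr5 2, and Spns2 and Sgpp1 0. The deposited table starts Sgpl1 further out than RefSeq does, so the last 19 bases of its region, which hold both matches, lie inside the gene as the table has it. Of 32851 promoter entries, 45.9% held at least 1 match to CCNCNCCC and 3.17% at least 1 to GTAAACA. GC content was 38.8% in the S1pr4 region and 74.8% in that of Sgpl1. A match to these letters is a description and says nothing about binding.

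Of 16 measured genes that supply ceramide and sphingosine, the precursors of S1P, 1 was called lower and none higher, beside 5.67% and 2.45% of all measured genes. Intervals lay below 1 for 9 of them and above 1 for 2, beside 37.3% and 37.1% of all measured genes, and the median log2 difference was -0.15. Smpd3, which encodes a neutral sphingomyelinase, had 18 reads in the Klf2 library and 77 in the BFP library, of which 9.47% over both libraries were uniquely placed. On uniquely placed reads, 1 in the Klf2 library and 8 in the BFP library, its ratio was 0.130 and it fell under the 1 CPM floor. The acid sphingomyelinase gene Smpd1 was at 8.43 CPM in the Klf2 library and 16.0 CPM in the BFP library, a ratio of 0.525 (0.450 to 0.613). Smpd4, another neutral sphingomyelinase gene, was at 205 CPM in the Klf2 library and 122 CPM in the BFP library, a ratio of 1.68 (1.61 to 1.75).

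None of the measured genes for diverting or degrading ceramide and S1P, or for transporting S1P, was called. Over all measured genes, 5.67% were called lower and 2.45% higher, and intervals lay below 1 for 37.3% and above 1 for 37.1%. In lists this short, no call is near those shares. For diversion and breakdown, 4 of 8 intervals lay below 1 and 1 above, with a median log2 difference of -0.07. Cerk, the ceramide kinase gene, had 1493 reads in the Klf2 library and 2790 in the BFP library, a ratio of 0.557 (0.523 to 0.593). Ratios were 0.638 for Plpp2, a lipid phosphate phosphatase gene listed under its older symbol Ppap2c, and 0.855 for Aldh3a2, whose product oxidises the aldehyde that the lyase releases. Ormdl2, a regulator of serine palmitoyltransferase, had a ratio of 1.23. For transport, 3 of 4 intervals lay below 1, with a median of -0.44. The transporter genes Abca7 and Abcc1 had ratios of 0.640 and 0.708, and Spns1, a lysosomal relative of Spns2, had 0.752. Mfsd2b, the S1P exporter of red cells and platelets, was at 2.44 CPM in the Klf2 library and 1.99 CPM in the BFP library.

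Of 17 measured genes for G proteins and receptor regulation, none was called, beside 5.67% called lower and 2.45% higher over all measured genes. Intervals lay above 1 for 7 and below 1 for 8, beside 37.1% and 37.3% of all measured genes, and the median was -0.01. Gna13, which carries S1pr2 signals in B cells, was at 105 CPM in the Klf2 library and 171 CPM in the BFP library, a ratio of 0.613 (0.586 to 0.641). Gna11, a Gq-family subunit, had a ratio of 1.58 (1.49 to 1.68). The arrestin gene Arrb1 had a ratio of 0.595 (0.475 to 0.744), and Grk6, a receptor kinase gene, one of 1.46 (1.41 to 1.52). Cd69, whose product takes S1pr1 protein off the cell surface, was at 40.7 CPM in the Klf2 library and 59.5 CPM in the BFP library; this gene was singled out after its values were seen.

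Among other receptors for lysophospholipids and related lipids, 1 of 5 measured genes was called lower and none higher, beside 5.67% and 2.45% of all measured genes, and the median log2 difference was 0.10. Cnr2, the cannabinoid receptor of lymphocytes, had 71 reads in the Klf2 library and 148 in the BFP library, a ratio of 0.499 (0.371 to 0.667). On uniquely placed reads its ratio was 0.504, just short of the limit. The lysophosphatidic acid receptor gene Lpar2 was at 17.8 CPM in the Klf2 library and 12.3 CPM in the BFP library, a ratio of 1.45 (1.27 to 1.66). Lpar5 had a ratio of 1.08 and Gpr132 of 1.10.

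**Figure D5:**
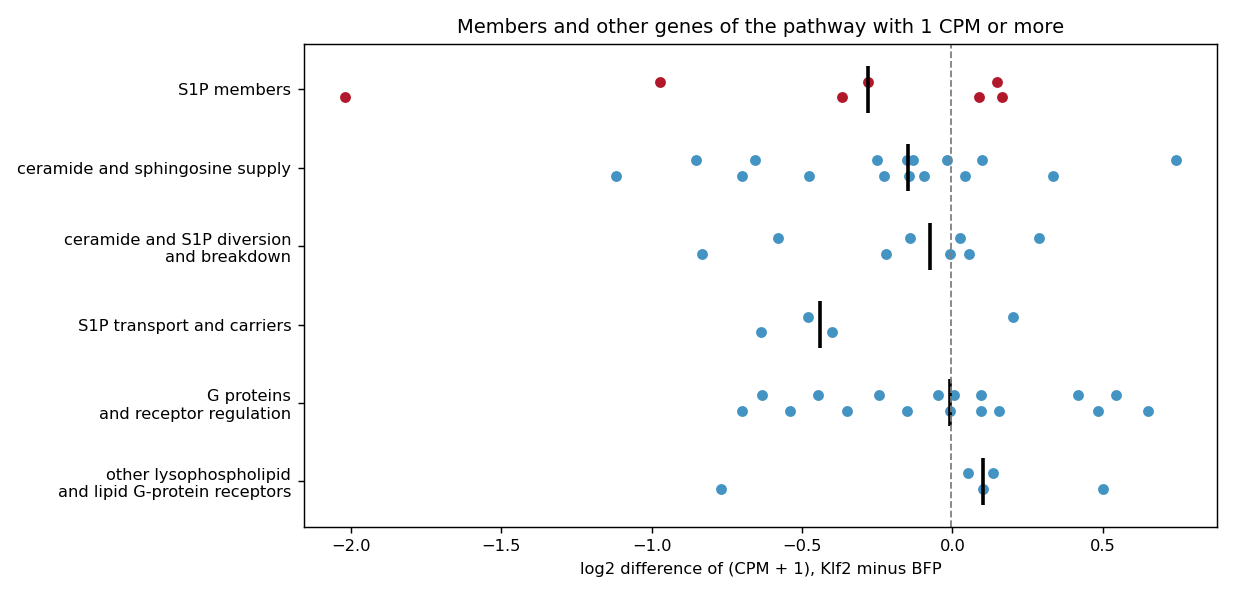
Difference in log2(CPM + 1), Klf2 minus BFP (x axis), for each measured S1P gene (red) and each measured gene of 5 related lists (blue), 1 point per gene. Black bars are list medians and the dashed line is the median of all measured genes; the medians lie between -0.44 for transport and 0.10 for other lipid receptors.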

How the data were processed

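RNA was sequenced from 8 lanes, 4 per group. Per the file headers, the authors deposited raw counts per gene and lane (all exon reads, uniquely placed exon reads, gene reads and junction reads), RPKM, and a signed fold, a score per gene. The deposited RPKM was checked by recomputing it from exon reads, exon length and the total gene reads of a lane (largest difference 0.0258). The submitters' processing notes name CASAVA 1.8.2 and mm10. Aligner, annotation and strand setting are not stated there, and the labels name 2 library kits without saying which library used which.

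Chi-square of lane counts per degree of freedom was 1.27 (Klf2) and 1.29 (BFP) on exon reads and 1.03 (both) on uniquely placed reads, so lanes were summed and counted as 1 sample. CPM was TMM-scaled with edgeR 4.0.16 (factors 0.969 for Klf2 and 1.03 for BFP). Ratio intervals are Clopper-Pearson, conditional on the summed reads (scipy 1.17.1). Genes named are all 10 genes, Klf2, and up to 4 per list with the largest log2 difference, called ones first; a gene that this rule takes is not reported here. Outside it, markers were named as examples from their lists, genes that overlap a member were named for that overlap, and Cd69 was named after its values were seen. Members and lists were chosen with earlier results of these data known. Of list symbols absent from the table, 4 were matched by older names and 2 (Acer2, Ebf1) by the longer of the rows that add a position to the symbol; 1 had no row.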

Additional observations from a re-analysis of the deposited data

Results flagged for a closer look

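S1pr2 in lane 2 of the Klf2 library was at 2.08 CPM before TMM scaling (16 reads), against 8 or 9 reads in the other 3 lanes, a gap wide enough to stand apart among 4 values. Of 14 sets of 4 lanes checked, this was the only one to do so. Chance alone sets apart about 1 set in 20, so 1 of 14 is no clear surplus. The ratio of S1pr2 was 0.534 with this lane left out of the Klf2 library alone, an alternative chosen after seeing the data, and 0.603 with lane 2 left out of both libraries, against 0.667 with all lanes.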

How the results depend on the processing

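No paired analysis was possible because the lane numbers mark runs of 1 library per group and no test was made. The number of S1P genes called lower was 1, and became 2 with total-count scaling, with deposited RPKM and with a 1.5-fold limit, Sgpl1 joining S1pr1 each time, and 0 with a floor of 10 CPM, which S1pr1 does not reach. With 1 lane number left out it was 1 to 2, Sgpl1 passing without lane 2 or 3. The S1pr1 ratio lay under 0.5 in all 9 alternatives that recompute it, between 0.0626 and 0.0943. No S1P gene was called higher under any alternative. Over all genes, higher calls were 432 with no floor and 128 with RPKM. A floor of 10 CPM gave 277 lower and 121 higher, and a 1.5-fold limit 1505 and 1112. Total-count scaling shifted the median log2 ratio by -0.09. Lower calls among ceramide and sphingosine supply genes were 1, against 2 with total-count scaling and 0 on uniquely placed reads, where Smpd3 is under the floor; among other lipid receptors they were 1, against 0 on uniquely placed reads. Sgpp1 left its interval with total-count scaling (1.05), RPKM (1.06) and reads outside exons (1.26). The S1pr1 log2 difference of -2.02 was -3.37 with 0.1 CPM and -0.82 with 5 CPM added. Few reads limit S1pr2, S1pr3, S1pr5, Sphk1 and Spns2.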
